A study of Mus musculus with 12 samples.

Results

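The Slc25a genes encode the mitochondrial carriers, the family of transporters that moves metabolites, nucleotides and cofactors across the inner membrane of mitochondria. The members were taken by symbol, as every gene whose name is Slc25a followed by a number. There are 47 of them among the 24197 genes of the deposited count table. Of these, 43 passed a filter on low counts and were tested, among 15265 genes tested in all. The other 4 were Slc25a21, Slc25a41, Slc25a43 and Slc25a54, with highest counts of 14, 2, 9 and 0 in any library. The uncoupling proteins and some other relatives belong to the same protein family under other symbols and are not counted as members.

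RNA was sequenced from brown adipose tissue, the fat that burns fuel to make heat, of mice 8 to 10 weeks old, and 4 groups of 3 libraries each make up the 12 libraries. Mutant animals carried floxed alleles of Ebf2, which encodes a transcription factor of brown fat, together with Adipoq-Cre, a recombinase driven by the promoter of the adipocyte gene Adipoq (Adipoq-Cre+; Ebf2 fl/fl). Control animals had the same floxed alleles and lacked the recombinase (Adipoq-Cre-; Ebf2 fl/fl), so every animal carried floxed Ebf2, and cells other than adipocytes were not the target in the mutants. The groups were mutants after 1 week in the cold at 4 degrees, controls after the same time in the cold, mutants at room temperature and controls at room temperature. The question named by the design was how the RNA of mutant and control brown fat differed at each temperature. Nothing in the labels ties replicates to separate animals, so the p-values reflect only how these libraries spread, and that spread may be technical.

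Each carrier has its own substrates. The ADP/ATP and phosphate carriers supply ATP synthase, the carboxylate carriers let citrate and malate cross for fat synthesis and for redox shuttles, and the acylcarnitine carrier brings fatty acids in to be oxidised. Others carry amino acids, coenzyme A, NAD, folate, glutathione or iron. In brown fat these routes serve both the burning of fuel in the mitochondria and the synthesis of fat in the cytosol.

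Library totals ran from 25835650 to 37927038 counts, and the family took between 0.629 and 0.784% of them. Levels are given in CPM, counts scaled to a common library total after TMM adjustment. The floor of detection, 3 counts in a library, was 0.0791 CPM in the deepest and 0.116 CPM in the shallowest, and covers counting error only. Ebf2 itself was 65.2, 45.7 and 38.3 CPM in mutant libraries and 47.4, 64.1 and 32 CPM in control libraries at room temperature. It was 28.7, 21.6 and 27 CPM in mutants and 52.3, 42.2 and 41.6 CPM in controls in the cold, and it was called at neither temperature (edgeR adjusted p = 0.931 for the room temperature difference and 0.153 for the cold one). The room temperature levels do not bear out the label. They cannot refute it either, because the counts are per gene and not per floxed exon, and cells other than adipocytes were not the target. The names mutant and control are therefore used as labels only, and each direction for genotype rests on those labels. Skeletal muscle markers (18 genes) took between 0.00568 and 2.95% of the counts. They took over 1% in 3 libraries, mutant room temperature 3 and control room temperature 1 and 3, and values without these are given beside the member where they change its call. Mutant cold library 3 stood apart as well, with 219 CPM of 4 epithelial markers (up to 21.3 CPM in the other 11) and 19886 CPM of 40 respiratory chain and ATP synthase genes (42130 and 47235 CPM in the other mutant cold libraries).

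Per kilobase of exon, which allows levels of different genes to be compared, 5 carriers held the first places in most groups. They were the citrate carrier Slc25a1, the ADP/ATP carriers Slc25a4 and Slc25a5, the acylcarnitine carrier Slc25a20 and the glutathione carrier Slc25a39. In mutant cold libraries Slc25a5 led the level with 608 ± 138 CPM per kilobase (SD, n = 3 here and below), followed by Slc25a1 at 504 ± 155 and Slc25a20 at 488 ± 108, whose spreads overlap. In control cold libraries Slc25a1 led with 746 ± 57.9 CPM per kilobase, above Slc25a5 at 511 ± 13.3 and Slc25a20 at 495 ± 11.9. In mutant room temperature libraries Slc25a1 stood far ahead at 1149 ± 235 CPM per kilobase, which was 32.5% of the whole family. The dicarboxylate carrier Slc25a10 came next there, at 429 ± 90.6 CPM per kilobase. In control room temperature libraries the first 4 lay close together, with Slc25a4 at 411 ± 138, Slc25a5 at 379 ± 42, Slc25a20 at 324 ± 38.1 and Slc25a1 at 305 ± 59.7 CPM per kilobase. Slc25a10 held place 13 in that group. Exon lengths were found for all 47 members.

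The summed level of all members was 3768 ± 547 CPM per kilobase in mutant cold, 3767 ± 104 in control cold, 3535 ± 276 in mutant room temperature and 2792 ± 48.3 in control room temperature libraries. Among roles the carboxylate carriers differed most between genotypes at room temperature, with 1658 ± 309 CPM per kilobase in mutants and 474 ± 74.6 in controls. The acylcarnitine carrier went the other way at room temperature, with 190 ± 27.1 CPM per kilobase in mutants and 324 ± 38.1 in controls. Cofactor carriers summed to 880 ± 85.1 in mutant cold, 809 ± 14.3 in control cold, 496 ± 12.6 in mutant room temperature and 592 ± 82 CPM per kilobase in control room temperature libraries. These sums are descriptions and were given no test.

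**Figure D1:**
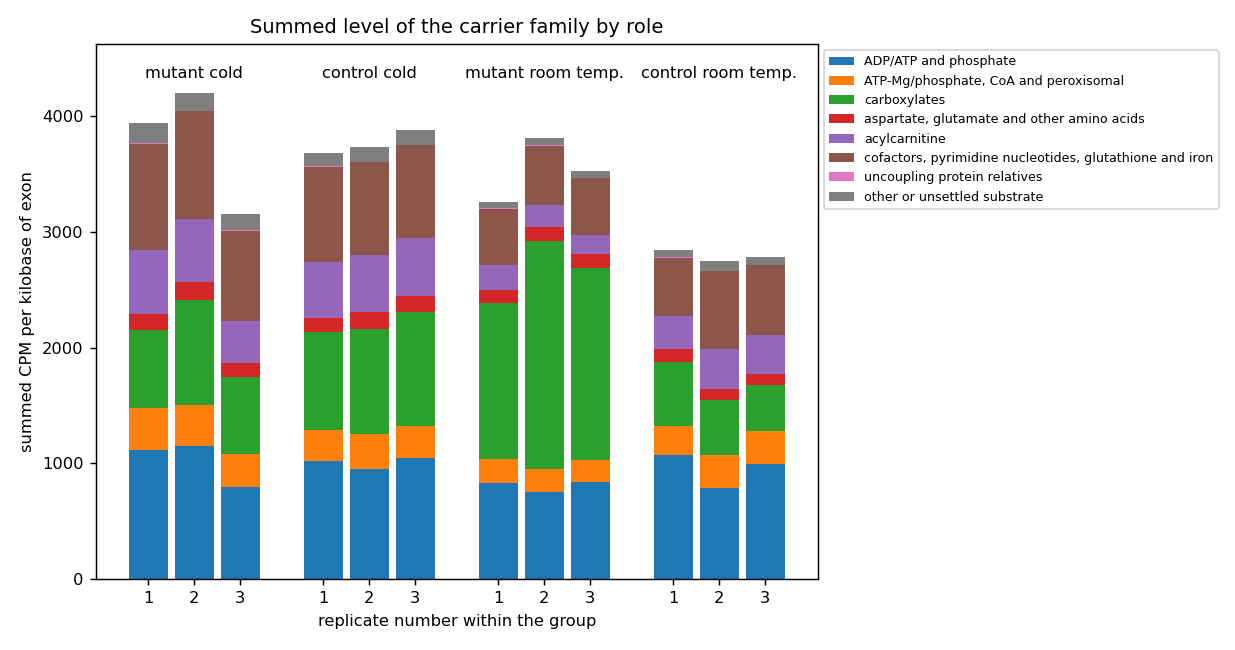
Summed level of the Slc25a genes in each of the 12 libraries, in CPM per kilobase of exon on a linear axis, with 1 bar per library and 1 colour per role. The carboxylate band is widest in the 3 mutant room temperature libraries, where it averaged 1658 CPM per kilobase.

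At room temperature, 3 carriers rose in mutants and 5 fell. Higher were the citrate carrier Slc25a1, the dicarboxylate carrier Slc25a10 and the calcium-regulated ATP-Mg/phosphate carrier Slc25a25, each by over 1 on the log2 scale. Lower were Slc25a34, whose substrate is unsettled, the coenzyme A carrier Slc25a42, the acylcarnitine carrier Slc25a20, the pyrimidine nucleotide carrier Slc25a33 and the oxoglutarate carrier Slc25a11. The 8 called members are 18.6% of the 43 tested, and 6.24% of all genes tested were called (3.92% higher and 2.32% lower). The median log2 fold change was -0.09 over the tested members and -0.04 over all genes. Called means an adjusted p below 0.05, from edgeR's quasi-likelihood test with Benjamini-Hochberg adjustment over all 15265 genes. With control room temperature library 3 left out, 5 were called. There were 2, Slc25a25 and Slc25a34, without the 3 muscle-rich libraries, which leaves 1 control library.

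Few calls were made between genotypes in the cold, which does not show that the levels were alike. Only Slc25a17, a peroxisomal carrier of coenzyme A and related cofactors, was called among the 43 members, higher in mutants. Of all genes tested, 1.12% were called (0.727% higher and 0.393% lower), and the medians were 0.04 over the members and -0.01 over all genes. The count of called members was 0 with each of 10 single libraries left out, and 1 without mutant cold library 3 or control room temperature library 2. At an unadjusted p under 0.05 there were 6 of the 43 members and 2343 of all 15265 genes tested.

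Cold exposure changed more carriers in mutants than in any other comparison. In mutants 12 rose in the cold (Slc25a5, Slc25a11, Slc25a15, Slc25a17, Slc25a20, Slc25a32, Slc25a33, Slc25a34, Slc25a39, Slc25a42, Slc25a46 and Slc25a51) and 4 fell (Slc25a1, Slc25a10, Slc25a23 and Slc25a25). These 16 are 37.2% of the tested members, where 17.4% of all genes were called (10.0% higher and 7.42% lower). The median log2 fold change was 0.22 over the members and -0.01 over all genes. In controls 5 rose in the cold (Slc25a1, Slc25a17, Slc25a34, Slc25a39 and Slc25a46) and none was called lower, where 6.62% of all genes were called (4.31% higher and 2.31% lower). The medians there were 0.16 over the members and -0.01 over all genes. The control count was 3 without control cold library 3, and 1, Slc25a34, without the muscle-rich libraries. The mutant and control cold responses were compared directly by the interaction of genotype and temperature.

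The interaction, which asks whether the cold response differed between mutants and controls, was called for 4 of the 43 members. It was negative for Slc25a1 and positive for Slc25a17, Slc25a34 and Slc25a42. Over all genes 0.478% were called (0.295% higher and 0.183% lower), and the median was 0.21 over the members and 0.02 over all genes. The 4 calls rest on few libraries. The count was 0 without mutant cold library 1 or control cold library 3, and 1 without control cold library 1 or 2 or control room temperature library 2. It was 2 without any 1 of the 3 mutant room temperature libraries, mutant cold library 2 or control room temperature library 3, and 5 without control room temperature library 1. At an unadjusted p under 0.05 there were 10 of the 43 members and 1869 of all 15265 genes tested.

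**Figure D2:**
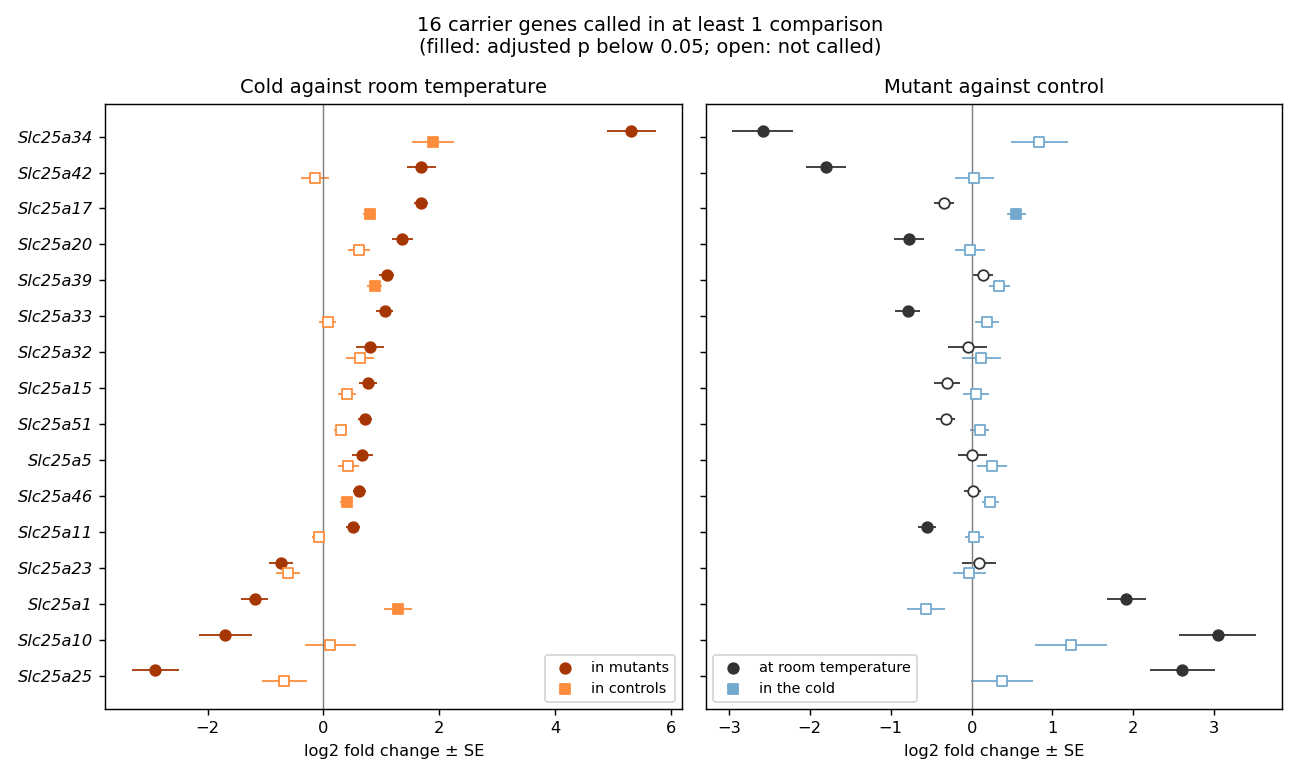
Log2 fold changes with their SE for the 16 members called in at least 1 of the 4 pairwise comparisons or in the interaction, with cold against room temperature on the left (circles in mutants, squares in controls) and mutant against control on the right (circles at room temperature, squares in the cold). Filled symbols passed the adjusted p threshold of 0.05, and Slc25a1 is the called member that fell in mutants and rose in controls in the cold.

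The carboxylate carriers export citrate, malate and oxoglutarate, and 2 of the 3 tested members rose at room temperature while the other fell. Of all genes tested, 3.92% were called higher and 2.32% lower in that comparison. Slc25a1, on chromosome 16, exports the citrate from which cytosolic acetyl-CoA is made. Its level was 740, 1132 and 646 CPM in mutant cold, 1188, 1185 and 1354 CPM in control cold, 1568, 2339 and 1836 CPM in mutant room temperature and 588, 542 and 397 CPM in control room temperature libraries. The 3 mutant room temperature libraries lay above all others and the 3 control room temperature libraries below all others. At room temperature Slc25a1 was 3.76-fold higher in mutants (log2 fold change 1.91 ± 0.24 SE, edgeR adjusted p = 0.00137). In the cold the difference was -0.57 ± 0.23 and was not called (adjusted p = 0.276), with mutant libraries all below control libraries. Cold exposure changed it by -1.19 ± 0.24 in mutants (adjusted p = 0.0054) and by 1.29 ± 0.24 in controls (adjusted p = 0.0098), an interaction of -2.48 ± 0.34 (adjusted p = 0.0103). Without the muscle-rich libraries the room temperature change was 1.85 (adjusted p = 0.0573). The interaction had adjusted p = 0.0732 without those libraries, 0.0586 without mutant cold library 1 and 0.0528 without control cold library 3. The change in controls had adjusted p = 0.0527 without control cold library 3 and 0.123 without the muscle-rich libraries.

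Slc25a10, on chromosome 11, exchanges malate and succinate for phosphate. It had 220, 235 and 351 CPM in mutant cold, 54.3, 176 and 113 CPM in control cold, 657, 979 and 969 CPM in mutant room temperature and 173, 67.8 and 75 CPM in control room temperature libraries. Mutant libraries were above control libraries at both temperatures, and the mutant room temperature libraries were above all others. The room temperature difference was 8.25-fold (log2 3.04 ± 0.47 SE, edgeR adjusted p = 0.0043). In the cold it was 1.23 ± 0.45 and not called (adjusted p = 0.22). Slc25a10 fell by 1.69 ± 0.45 on the log2 scale in the cold in mutants (adjusted p = 0.0259), and in controls the change was 0.12 ± 0.44 (adjusted p = 0.899). The interaction, -1.81 ± 0.63, was not called (adjusted p = 0.266). Without the muscle-rich libraries the room temperature change was 3.60 (adjusted p = 0.051) and the fall in mutants had adjusted p = 0.0505. That fall also missed the threshold without mutant room temperature library 2 (0.0781) or 3 (0.0719) and without mutant cold library 1 (0.0998) or 2 (0.0922). An antisense gene overlaps 11.3% of the Slc25a10 exons, and the strand setting of the counting is not given in the sources used here.

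Slc25a11 carries oxoglutarate against malate in the malate-aspartate shuttle and kept a narrow range. It was 213, 190 and 177 CPM in mutant cold, 181, 188 and 198 CPM in control cold, 139, 132 and 137 CPM in mutant room temperature and 188, 198 and 212 CPM in control room temperature libraries. The mutant room temperature libraries were below all others. The difference at room temperature was -0.55 ± 0.11 (edgeR adjusted p = 0.0134), and the cold change was 0.51 ± 0.11 in mutants (adjusted p = 0.00935) and -0.08 ± 0.11 in controls (adjusted p = 0.706). The room temperature call was lost without mutant library 2 (0.0815) or 3 (0.0626), control library 3 (0.0706) or the muscle-rich libraries (0.166). The cold call in mutants was lost without mutant room temperature library 2 (0.0554) or mutant cold library 1 (0.0643).

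Promoter windows are printed for the 5 members called between genotypes at room temperature with a log2 fold change past 1 in either direction, because these carry the largest differences. Each is the 250 bases before a RefSeq start in mouse GRCm38.p6, on the strand of the gene, 5′ to 3′. The letters searched on both strands were TCCC and GGGA with 2 free bases between them (EBF), TCAAGGTCA (estrogen-related receptor half-site), TGACGTCA (CRE), TCACNCCAC (sterol regulatory element), CACGTG (E-box), AGGTCA repeated with 1 free base between the copies (PPAR response element), GCGC and TGCGC with 1 free base between them (NRF1) and TTGCNNAA (C/EBP). Capitals mark a match, and none of the printed matches overlap. The windows of the carboxylate carriers Slc25a1 (chr16:17928220-17928469, minus strand) and Slc25a10 (chr11:120491587-120491836, plus strand) follow.
Slc25a1: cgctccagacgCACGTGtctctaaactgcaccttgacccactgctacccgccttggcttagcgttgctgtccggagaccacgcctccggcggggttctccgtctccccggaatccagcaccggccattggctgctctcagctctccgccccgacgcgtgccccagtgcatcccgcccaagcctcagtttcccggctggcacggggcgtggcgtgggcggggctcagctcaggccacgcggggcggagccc
Slc25a10: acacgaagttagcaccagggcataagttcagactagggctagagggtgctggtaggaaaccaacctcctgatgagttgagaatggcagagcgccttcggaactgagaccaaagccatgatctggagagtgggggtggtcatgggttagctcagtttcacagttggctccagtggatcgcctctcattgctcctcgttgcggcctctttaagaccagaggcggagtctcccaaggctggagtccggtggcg
The Slc25a1 window holds the E-box letters at position -239 from the start, and the Slc25a10 window holds none of the 8 motifs. E-box letters occur in 6.02% of the 32851 promoter windows in the table and in 8 of the 46 windows found for members, which cover 36 of the 47 members. Neither the EBF letters (0.779% of all windows), the estrogen-related receptor letters (0.387%) nor the PPAR letters (0.0335%) occur in any member window.

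The ATP-Mg/phosphate, coenzyme A and peroxisomal carriers set the pool of adenine nucleotides and coenzyme A, and 4 of the 7 members are given here with their values. Slc25a25, on chromosome 2, is gated by calcium and moves ATP-Mg against phosphate. It had 12, 12.2 and 21.3 CPM in mutant cold, 10.5, 13.7 and 11 CPM in control cold, 122, 110 and 110 CPM in mutant room temperature and 30.8, 8.32 and 17 CPM in control room temperature libraries. The 3 mutant room temperature libraries stood apart above the other 9, among which the groups overlapped. It was 6.08-fold higher in mutants at room temperature (log2 2.60 ± 0.40 SE, edgeR adjusted p = 0.00422), and not called in the cold (0.37 ± 0.38, adjusted p = 0.68). In mutants it fell by 2.91 ± 0.41 in the cold (adjusted p = 0.000945), a 7.5-fold difference, against a change of -0.68 ± 0.38 in controls (adjusted p = 0.315). Neither call for mutants was lost under any alternative tried. The interaction of -2.23 ± 0.55 was not called (adjusted p = 0.124) but was without control room temperature library 1 (adjusted p = 0.0137). Leaving out the muscle-rich libraries leaves control room temperature library 2 alone in its group, and it had the lowest level of all, 8.32 CPM. In that fit the interaction was -3.44, and the change in controls was 0.50, opposite in sign to that with all libraries. Exons of Naif1 on the other strand overlap 9.20% of its exon length.

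Slc25a42, on chromosome 8, brings coenzyme A into mitochondria. It had 432, 446 and 242 CPM in mutant cold, 341, 404 and 348 CPM in control cold, 148, 109 and 89.8 CPM in mutant room temperature and 391, 361 and 458 CPM in control room temperature libraries. The mutant room temperature libraries lay below all others, and the remaining groups overlapped. The difference at room temperature was 3.49-fold (log2 -1.80 ± 0.25 SE, edgeR adjusted p = 0.00175), and in the cold it was 0.03 ± 0.24 (adjusted p = 0.964). The cold change was 1.69 ± 0.24 in mutants (adjusted p = 0.000853) and -0.14 ± 0.24 in controls (adjusted p = 0.75). The interaction was 1.84 ± 0.34 (adjusted p = 0.0449). The room temperature change was -1.48 without the muscle-rich libraries (adjusted p = 0.0697). The interaction call was lost without those libraries (0.152) and with 9 of the 12 libraries left out singly (adjusted p between 0.0758 and 0.166). Of the single libraries it held only without mutant room temperature library 1, mutant cold library 3 or control room temperature library 1.

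The 3 annotated Slc25a25 starts (minus strand) gave the windows chr2:32424067-32424316 (a), chr2:32431152-32431401 (b) and chr2:32451471-32451720 (c), and Slc25a42 gave chr8:70212282-70212531 (minus strand). They are shown because Slc25a25 was the most raised and Slc25a42 the most lowered of this role at room temperature, with capitals as above.
Slc25a25 a: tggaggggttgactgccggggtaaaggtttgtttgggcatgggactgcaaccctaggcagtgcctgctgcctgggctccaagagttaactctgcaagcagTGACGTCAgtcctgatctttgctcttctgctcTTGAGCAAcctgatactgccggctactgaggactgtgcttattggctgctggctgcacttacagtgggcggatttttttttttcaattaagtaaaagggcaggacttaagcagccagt
Slc25a25 b: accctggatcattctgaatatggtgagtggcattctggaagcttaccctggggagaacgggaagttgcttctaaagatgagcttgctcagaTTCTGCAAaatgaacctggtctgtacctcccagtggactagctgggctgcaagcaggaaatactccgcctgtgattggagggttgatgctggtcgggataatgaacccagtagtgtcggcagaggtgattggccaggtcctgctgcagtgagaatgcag
Slc25a25 c: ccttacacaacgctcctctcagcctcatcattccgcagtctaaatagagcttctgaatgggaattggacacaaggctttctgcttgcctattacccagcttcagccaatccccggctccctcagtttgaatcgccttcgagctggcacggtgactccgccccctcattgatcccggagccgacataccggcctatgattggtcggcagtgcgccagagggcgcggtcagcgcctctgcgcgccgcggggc
Slc25a42: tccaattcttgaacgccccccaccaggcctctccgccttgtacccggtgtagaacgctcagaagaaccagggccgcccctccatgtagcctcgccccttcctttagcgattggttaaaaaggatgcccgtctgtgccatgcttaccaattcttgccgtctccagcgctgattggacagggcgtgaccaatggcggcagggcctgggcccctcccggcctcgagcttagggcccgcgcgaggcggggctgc
Window a of Slc25a25 holds the CRE letters at -150, which occur in 1.55% of all windows, and C/EBP letters at -118. Window b holds C/EBP letters at -159, and these occur in 9.56% of all windows. Window c and the Slc25a42 window hold none of the motifs. The counts are per gene, so which start was used was not measured.

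Slc25a17, the peroxisomal carrier, was the member with the smallest adjusted p in the cold response of mutants. It had 286, 269 and 237 CPM in mutant cold, 193, 179 and 169 CPM in control cold, 85.2, 77.3 and 83.5 CPM in mutant room temperature and 95.4, 111 and 105 CPM in control room temperature libraries. None of the 4 groups overlapped another. The cold change was 1.69 ± 0.12 in mutants (3.22-fold, edgeR adjusted p = 2.05e-05) and 0.80 ± 0.12 in controls (1.74-fold, adjusted p = 0.00347). The interaction was 0.89 ± 0.17 (adjusted p = 0.0462). Between genotypes the difference was -0.34 ± 0.12 at room temperature (adjusted p = 0.12) and 0.55 ± 0.12 in the cold (1.46-fold, adjusted p = 0.0499). The cold difference sat at the threshold and was lost with each library left out except mutant cold 3 and control room temperature 2 (adjusted p between 0.0533 and 0.237), and without the muscle-rich libraries (0.0906). The interaction call was likewise lost with each library left out except mutant cold 3 and control room temperature 1 (adjusted p between 0.0891 and 0.18), and without the muscle-rich libraries (0.102). In controls the cold change had adjusted p = 0.0863 without the muscle-rich libraries.

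Slc25a23, another calcium-regulated ATP-Mg/phosphate carrier, had 115, 121 and 153 CPM in mutant cold, 106, 148 and 141 CPM in control cold, 196, 242 and 207 CPM in mutant room temperature and 161, 269 and 175 CPM in control room temperature libraries. Cold libraries lay below room temperature libraries in both genotypes. It fell by 0.73 ± 0.21 in mutants (edgeR adjusted p = 0.0313), a call lost without mutant room temperature library 2 (0.115) or 3 (0.0658) and without mutant cold library 1 (0.122) or 2 (0.0964). In controls the change was -0.61 ± 0.21 (adjusted p = 0.0992). Slc25a16 and Slc25a24 were tested and not called, and Slc25a41 was below the filter.

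**Figure D3:**
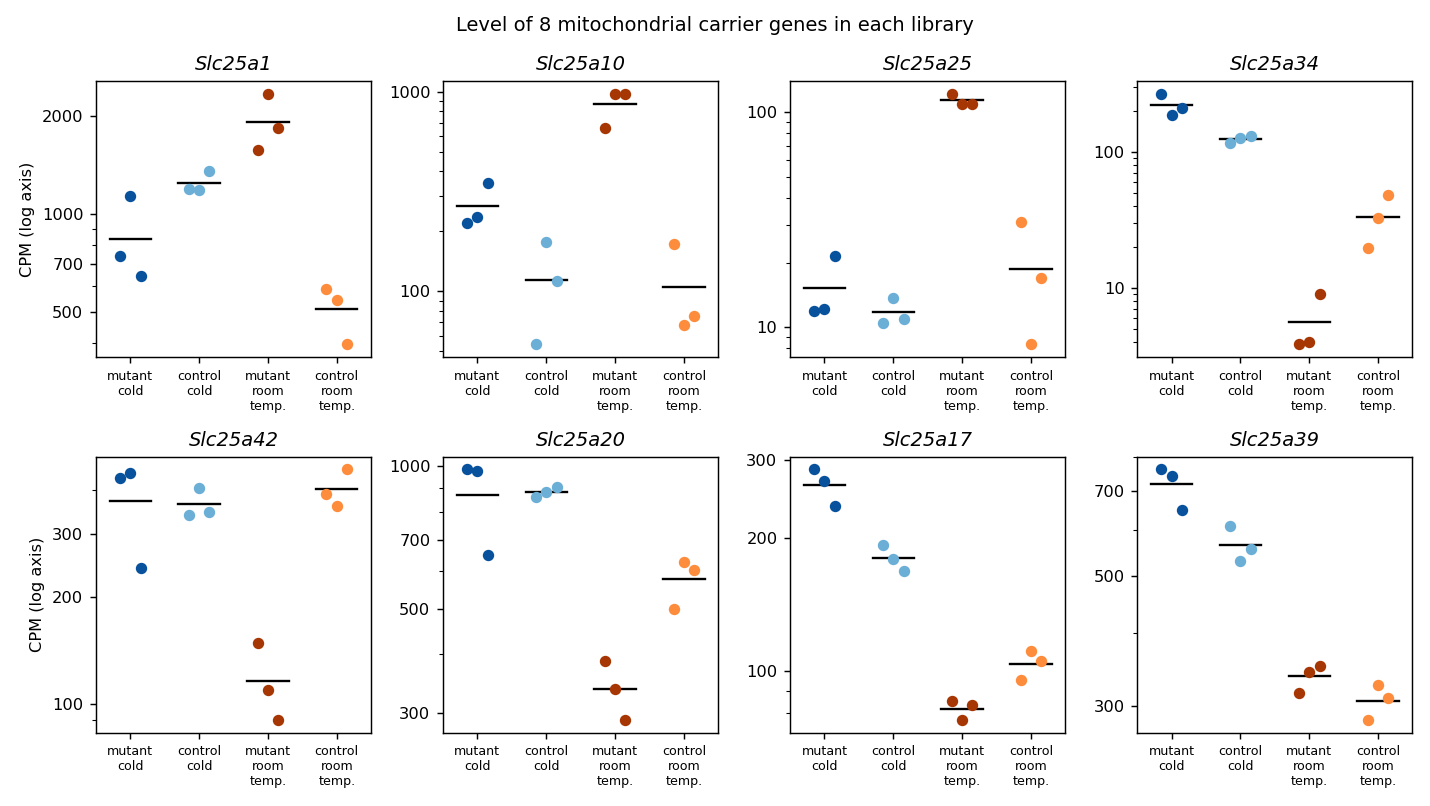
CPM on log axes in each of the 12 libraries for Slc25a1, Slc25a10, Slc25a25, Slc25a34, Slc25a42, Slc25a20, Slc25a17 and Slc25a39, with 1 point per library and a black line at the group mean. The mutant room temperature points stand apart from the other groups for Slc25a1, Slc25a10 and Slc25a25 (above) and for Slc25a34, Slc25a42, Slc25a20 and Slc25a17 (below).

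Slc25a20, on chromosome 9, is the carnitine-acylcarnitine carrier and the step that brings long-chain fatty acids into the matrix. It had 986, 977 and 648 CPM in mutant cold, 861, 881 and 903 CPM in control cold, 387, 337 and 290 CPM in mutant room temperature and 500, 628 and 604 CPM in control room temperature libraries. All cold libraries exceeded all room temperature libraries, and at room temperature mutants lay below controls. The cold change was 1.36 ± 0.19 in mutants (2.57-fold, edgeR adjusted p = 0.000652) and 0.61 ± 0.18 in controls (adjusted p = 0.0683), with an interaction of 0.75 ± 0.26 (adjusted p = 0.257). In controls it was called without mutant cold library 3 (adjusted p = 0.0153). Between genotypes it was -0.77 ± 0.18 at room temperature (adjusted p = 0.0281) and -0.02 in the cold (adjusted p = 0.972). The room temperature call was lost without mutant library 2 (0.12) or 3 (0.136) or control library 2 (0.0805) or 3 (0.108). It was also lost without control cold library 1 (0.0534), 2 (0.0569) or 3 (0.0599), which share the estimate of spread, and without the muscle-rich libraries (0.19).

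The ADP/ATP and phosphate carriers, which serve ATP synthase, had 1 call among 4 tested members in all 5 comparisons. Slc25a5, the ADP/ATP carrier of most tissues, rose in mutants in the cold by 0.67 ± 0.18 (edgeR adjusted p = 0.0274), where 10.0% of all genes were called higher. It had 839, 865 and 557 CPM in mutant cold, 651, 629 and 619 CPM in control cold, 502, 524 and 395 CPM in mutant room temperature and 418, 522 and 469 CPM in control room temperature libraries. Cold libraries were above room temperature libraries in both genotypes, and in controls the change was 0.43 ± 0.18 (adjusted p = 0.182). The call was lost with each of the mutant room temperature libraries left out (0.0532 to 0.126), without mutant cold library 1 (0.125) or 2 (0.119), and without control cold library 2 (0.0514) or 3 (0.0526). It was also lost without the muscle-rich libraries (0.129). Whether Slc25a5 shares reads with a pseudogene was not tested. Slc25a3, the phosphate carrier, averaged 363 ± 100 CPM in mutant cold, 427 ± 3.96 in control cold, 384 ± 68.4 in mutant room temperature and 316 ± 95 CPM in control room temperature libraries, with no call and with overlap between all groups except control cold, which lay above control room temperature. Slc25a31, an isoform known from testis, lay near the floor and at 0 in 3 libraries.

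Slc25a4, the ADP/ATP carrier known from heart and skeletal muscle, had 445, 430 and 418 CPM in mutant cold, 523, 429 and 637 CPM in control cold, 360, 303 and 659 CPM in mutant room temperature and 1023, 501 and 852 CPM in control room temperature libraries. The highest library in each of the room temperature groups was one with over 1% muscle markers. In control cold, library 3 had most muscle marker RNA and most Slc25a4. In mutant cold, library 3 had most muscle marker RNA and least Slc25a4. The part of muscle in the Slc25a4 levels was not tested. The difference between genotypes at room temperature was -0.85 ± 0.31 (edgeR adjusted p = 0.134). With all libraries it was called by DESeq2 (-0.84, adjusted p = 0.0489) and by limma-voom with quality weights (-1.10, adjusted p = 0.0173). Without mutant room temperature library 3 it was -1.25 and called by edgeR (adjusted p = 0.035). That fit keeps the muscle-rich control room temperature libraries 1 and 3. Without all the muscle-rich libraries of both genotypes, which leaves 1 control room temperature library, the difference was smaller, -0.59. Slc25a12, the calcium-regulated aspartate-glutamate carrier, was added here after its values were seen. It had 5.05, 6.16 and 20.5 CPM in mutant cold, 8.37, 4.21 and 25.5 CPM in control cold, 7.69, 4.61 and 54.1 CPM in mutant room temperature and 74, 4.47 and 45.6 CPM in control room temperature libraries. The 18 muscle markers summed to 58.3, 357 and 6267 CPM in mutant cold, 2566, 182 and 10448 CPM in control cold, 1317, 72.3 and 21801 CPM in mutant room temperature and 27143, 91.7 and 19094 CPM in control room temperature libraries. Within each group the library with most muscle marker RNA also had most Slc25a12. Neither Slc25a12 nor any of the 18 muscle markers was called in any comparison.

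**Figure D4:**
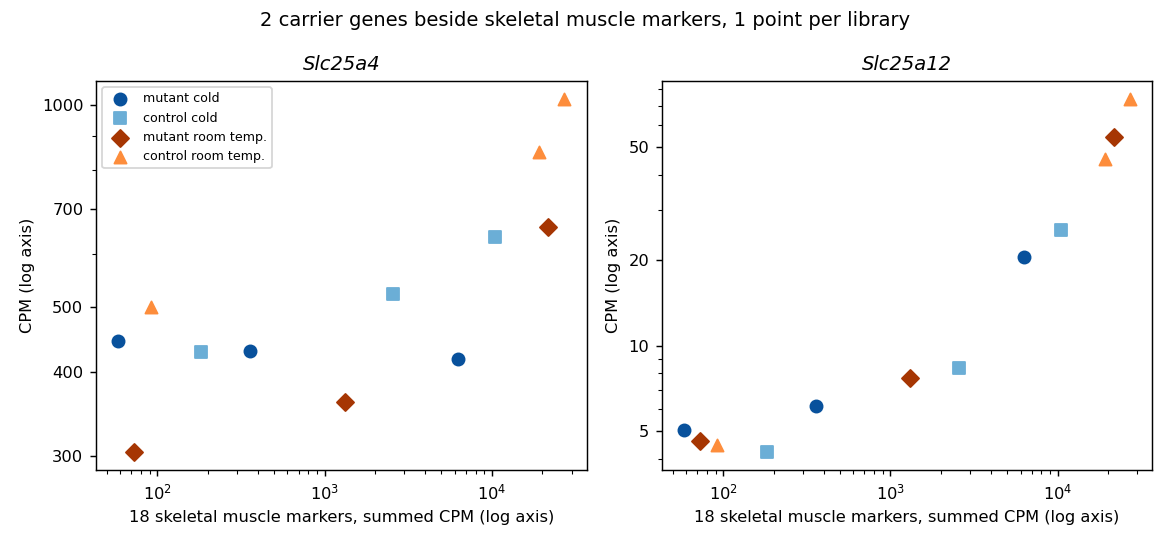
Slc25a4 (left) and Slc25a12 (right) in CPM against the summed CPM of 18 skeletal muscle markers, both on log axes, with 1 point per library and a symbol per group. The 3 room temperature libraries with over 1% muscle markers have the highest Slc25a12, from 45.6 to 74 CPM.

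Of 9 amino acid carriers tested, 1 was called, in 1 comparison, the cold in mutants, where 10.0% of all genes were called higher. The called member was the ornithine carrier Slc25a15. It averaged 32.9 ± 3.92 CPM in mutant cold, 31.6 ± 0.887 in control cold, 19.3 ± 3.28 in mutant room temperature and 23.8 ± 3.89 CPM in control room temperature libraries, and rose in mutants in the cold by 0.77 ± 0.16 (edgeR adjusted p = 0.00658). In controls the change was 0.41 ± 0.16 (adjusted p = 0.144). Slc25a44, which carries branched-chain amino acids into brown fat mitochondria, had 172, 217 and 173 CPM in mutant cold, 147, 196 and 185 CPM in control cold, 163, 230 and 184 CPM in mutant room temperature and 133, 164 and 111 CPM in control room temperature libraries. The groups of each comparison overlapped. The difference between genotypes at room temperature was 0.50 ± 0.19 (adjusted p = 0.145), and the cold change was -0.04 in mutants (adjusted p = 0.91) and 0.37 ± 0.19 in controls (adjusted p = 0.252). Slc25a2, Slc25a12, Slc25a13, Slc25a18, Slc25a22, Slc25a29 and Slc25a38 were not called, and of these Slc25a22, a glutamate carrier, was the most abundant, with 178 ± 31.7 CPM in mutant cold and 111 ± 31.4 CPM in control room temperature libraries.

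Of 10 tested carriers of cofactors, nucleotides, glutathione and iron, 4 rose in the cold in mutants and 1 in controls, where 10.0% and 4.31% of all genes were called higher. Slc25a39, on chromosome 11, which is needed for glutathione import, had 762, 743 and 650 CPM in mutant cold, 609, 532 and 556 CPM in control cold, 316, 344 and 351 CPM in mutant room temperature and 284, 326 and 309 CPM in control room temperature libraries. Every cold library was above every room temperature library. The change was 1.09 ± 0.13 in mutants (2.13-fold, edgeR adjusted p = 0.000312) and 0.88 ± 0.13 in controls (1.85-fold, adjusted p = 0.0032), and the interaction of 0.21 was not called (adjusted p = 0.718). The control call had adjusted p = 0.0775 without the muscle-rich libraries. Slc25a40, its close relative, was tested and not called.

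Slc25a51, the NAD carrier, averaged 827 ± 35.8 CPM in mutant cold, 773 ± 19.8 in control cold, 504 ± 13.2 in mutant room temperature and 630 ± 38 CPM in control room temperature libraries. Its cold change was 0.71 ± 0.12 in mutants (edgeR adjusted p = 0.00199) and 0.30 ± 0.12 in controls (adjusted p = 0.16). Slc25a33, a pyrimidine nucleotide carrier on chromosome 4, had 76, 74.2 and 76.2 CPM in mutant cold, 68.8, 63.5 and 65.8 CPM in control cold, 31.1, 46.8 and 30.9 CPM in mutant room temperature and 58.9, 61.4 and 67.9 CPM in control room temperature libraries. Mutant cold libraries were above all others and mutant room temperature libraries below all others. It changed by 1.06 ± 0.15 in the cold in mutants (edgeR adjusted p = 0.000831) and by 0.07 ± 0.15 in controls (adjusted p = 0.799), with an interaction of 0.98 ± 0.21 that was not called (adjusted p = 0.0811) but was without mutant room temperature library 2 (0.0217). At room temperature it was -0.79 ± 0.15 between genotypes (adjusted p = 0.0097), a call lost without control library 3 (0.0513) or the muscle-rich libraries (0.183). An antisense gene overlaps 14.9% of its exons. Slc25a32, a folate and flavin carrier, rose in mutants in the cold by 0.80 ± 0.24 (adjusted p = 0.0409), with 30.2, 47.6 and 26.9 CPM in mutant cold and 14.5, 24.8 and 20.9 CPM in mutant room temperature libraries. That call was lost with 8 of the 12 libraries left out singly (adjusted p between 0.052 and 0.187) and held without mutant room temperature library 2, control room temperature library 2 or 3, or mutant cold library 3. It was also lost without the muscle-rich libraries (0.112). The carriers Slc25a26, Slc25a28, Slc25a36 and Slc25a37, which include both mitoferrins, were not called.

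Slc25a34, on chromosome 4, had the widest range of the tested members with counts in every library, and its transported substrate is unsettled. It had 270, 189 and 211 CPM in mutant cold, 117, 127 and 132 CPM in control cold, 3.84, 4 and 8.96 CPM in mutant room temperature and 19.6, 32.5 and 48.6 CPM in control room temperature libraries. The 4 groups did not overlap. At room temperature it was 6-fold lower in mutants (log2 -2.58 ± 0.38 SE, edgeR adjusted p = 0.00311), and in the cold the difference was 0.83 ± 0.35 and not called (adjusted p = 0.289), though it was called without the muscle-rich libraries (adjusted p = 0.047). Cold exposure raised it 39.9-fold in mutants (log2 5.32 ± 0.42, adjusted p = 6.03e-05) and 3.73-fold in controls (1.90 ± 0.36, adjusted p = 0.0128). The interaction was 3.42 ± 0.51 (adjusted p = 0.02). The 3 pairwise calls held under every alternative tried, and without the muscle-rich libraries the room temperature difference was -3.05. The interaction call was lost with each of 7 libraries left out (adjusted p between 0.0504 and 0.0847), namely mutant room temperature 1 and 2, control room temperature 2, mutant cold 1 and control cold 1, 2 and 3. Its promoter window is chr4:141623835-141624084 (minus strand), shown because this member had the largest fold changes, and it holds none of the 8 motifs.
Slc25a34: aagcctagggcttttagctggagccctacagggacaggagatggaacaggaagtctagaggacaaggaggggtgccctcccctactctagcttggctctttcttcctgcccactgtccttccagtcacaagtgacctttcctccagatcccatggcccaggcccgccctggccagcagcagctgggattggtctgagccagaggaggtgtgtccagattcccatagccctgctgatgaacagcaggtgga

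Slc25a46, an outer membrane member that takes part in mitochondrial fission and fusion, rose in the cold in both genotypes. It had 166, 155 and 146 CPM in mutant cold, 134, 131 and 132 CPM in control cold, 90.6, 108 and 105 CPM in mutant room temperature and 98.3, 107 and 95.6 CPM in control room temperature libraries. The change was 0.62 ± 0.11 in mutants (edgeR adjusted p = 0.00277) and 0.40 ± 0.11 in controls (adjusted p = 0.0499). The control call sat at the threshold. It was lost with RLE scaling (0.0649), without a filter on low counts (0.101), with a replicate block (0.0637) and with only the groups compared (0.0691). It was also lost with each library left out except mutant room temperature 1 and mutant cold 3 (0.0631 to 0.175). Without the muscle-rich libraries, which leaves 1 control room temperature library, it was lost too, with a change of 0.31. Exons of genes on the opposite strand overlap 8.56% of the Slc25a46 exons and 4.22% of those of Slc25a23. Slc25a35, Slc25a45, Slc25a47, Slc25a48 and Slc25a53 were tested and not called. The 3 relatives of the uncoupling proteins, Slc25a14, Slc25a27 and Slc25a30, were scarce and not called. Slc25a30, the most abundant, averaged 7 ± 1.54 CPM in mutant cold, 3.75 ± 0.644 in control cold, 7.58 ± 1.92 in mutant room temperature and 5.22 ± 0.401 CPM in control room temperature libraries. Its difference between genotypes in the cold was 0.90 ± 0.24 (adjusted p = 0.105).

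**Figure D5:**
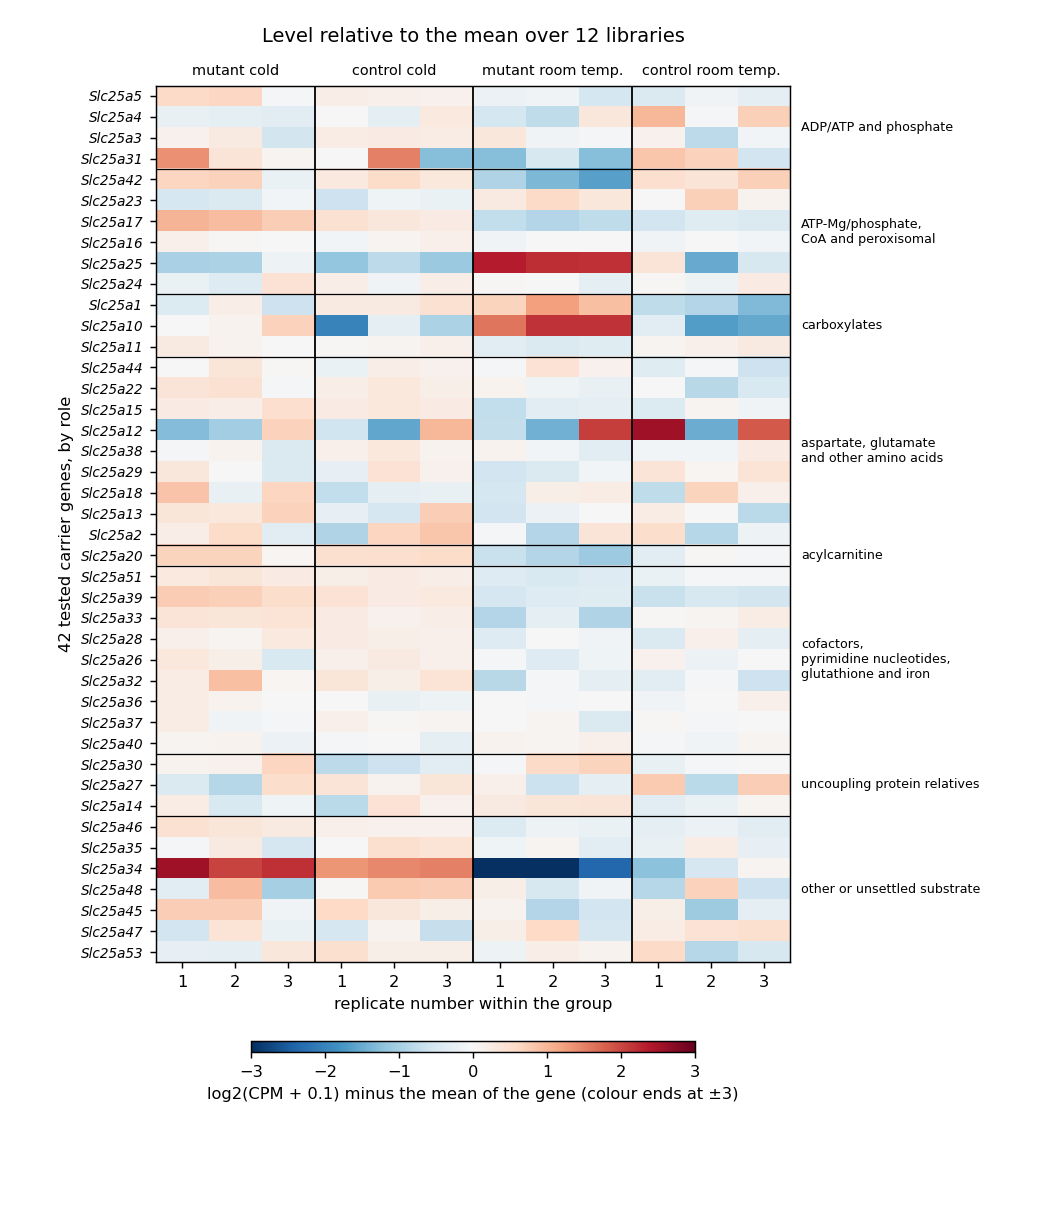
Heat map of 42 tested members (down the page, by role) in the 12 libraries, as log2(CPM + 0.1) minus the mean of the gene, with red above and blue below that mean and colours ending at 3 on either side. Slc25a34 is deepest blue in mutant room temperature libraries, where Slc25a25 and Slc25a10 are deepest red.

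Across the 16 called members, the 5 that were lower in mutants than in controls at room temperature all rose in mutants in the cold. The 3 that were higher at room temperature fell in mutants in the cold. Both comparisons use the same mutant room temperature libraries, so this is a description of where those libraries stood and not independent support.

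Enzymes on either side of the carriers were counted from lists. Over all genes 3.92% were called higher and 2.32% lower between genotypes at room temperature, and in the cold 10.0% were called higher in mutants and 4.31% in controls. Genes that use citrate in the cytosol (10 tested) had 8 called higher in mutants at room temperature and 5 higher in the cold in controls, with medians of 1.51 and 1.09. In mutants in the cold 1 was higher and 2 lower. Acly, which splits the citrate that Slc25a1 exports, was 1.54 ± 0.36 higher in mutants at room temperature (edgeR adjusted p = 0.0249) and 1.87 ± 0.36 higher in the cold in controls (adjusted p = 0.0118). Carnitine shuttle enzymes (6 tested) had 2 lower in mutants at room temperature, with 5 higher in the cold in mutants and 1 in controls, and cold medians of 0.83 and 0.15. Cpt1b, which makes acylcarnitines for Slc25a20, was -1.05 ± 0.20 between genotypes at room temperature (adjusted p = 0.00902) and changed by 1.23 ± 0.20 in the cold in mutants (adjusted p = 0.00163). The respiratory chain and ATP synthase (40 tested) had 2 called lower at room temperature in mutants and 13 higher in the cold in mutants, with medians of -0.69 and 0.65, and 0 called by edgeR in controls in the cold (6 at an unadjusted p under 0.05), where the median was 0.39. Of all 15265 genes tested, 3609 had an unadjusted p under 0.05 in controls in the cold. Enzymes of branched-chain amino acid breakdown (11 tested) had 4 higher in the cold in mutants and 1 in controls. In the edgeR interaction, the test of whether the cold responses differed, 1 of the 10 citrate genes was called, lower. At an unadjusted p under 0.05 there were 8 of these 10, against 1869 of all 15265 genes tested. The median interaction of the citrate genes was -1.67, and 9 of the 10 were negative. None of the carnitine shuttle, branched-chain or respiratory chain genes was called there, with 3, 2 and 0 at an unadjusted p under 0.05, so their cold responses are not shown to differ between mutants and controls.

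Markers of cell types moved with some of the same comparisons. Brown adipocyte markers (7 genes) summed to between 9302 and 16964 CPM in mutant cold, 15755 and 17625 in control cold, 3176 and 4575 in mutant room temperature and 5424 and 10322 CPM in control room temperature libraries. Ucp1 alone accounted for much of this sum, with 5867 to 11675 CPM in mutant cold, 11505 to 12212 in control cold, 718 to 2020 in mutant room temperature and 2684 to 5617 CPM in control room temperature libraries. The 7 genes did not move together. At room temperature 1 was called higher and 1 lower in mutants (median -0.17), and in the cold 3 were called higher in mutants (median 0.59) and 2 in controls (median -0.14). Of all genes tested, 3.92% were called higher and 2.32% lower in mutants at room temperature. In the cold 10.0% of all genes were called higher in mutants and 4.31% in controls. General adipocyte markers (8 genes) summed to between 22004 and 27488 CPM in mutant and 14811 and 19169 CPM in control room temperature libraries. Lens markers (7 genes) summed to between 54.5 and 103 CPM in mutant and 233 and 520 CPM in control room temperature libraries, with 5 of 7 called lower in mutants, and Mip was at 0 in all 3 mutant libraries. In that comparison 2.32% of all genes were called lower. In mutant cold libraries the lens markers summed to between 98.9 and 131 CPM. In the cold 4 of the 7 were called higher in mutants (median 5.25) and 0 in controls (median -1.06). The interaction was called for 4 of the 7, all higher (median 5.91), where 0.295% of all genes were called higher. In bulk tissue fewer cells of a type and less RNA per cell cannot be told apart. The part of these markers in the carrier results was not tested.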

How the data were processed

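Gene counts of brown adipose tissue from 12 libraries in 4 groups were analysed, with groups taken from the sample labels. The deposited values are raw read counts per gene made by the authors. The submitters' processing notes name STAR, featureCounts and the mouse build mm9. For the versions, annotation, strand setting and treatment of multiply matching reads, the sources used here give nothing. Per the labels' protocols, TRIzol and columns served for extraction and a NEBNext Ultra RNA kit for the libraries.

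Genes were filtered with filterByExpr (minimum count 10, minimum total 15), scaled by TMM and tested in edgeR 4.0.16 under R 4.3.3 with robust quasi-likelihood F-tests on all libraries, 1 coefficient per group and 5 contrasts. Two-sided p-values were adjusted over all tested genes by Benjamini-Hochberg, with a call below 0.05. The SE is the one implied by the F statistic. Levels (CPM) are counts over TMM-scaled totals. Exon lengths came from GENCODE M21 basic (GRCm38) and promoter windows from RefSeq (GRCm38.p6). Both differ from the build of the counts, so only chromosomes and these promoter windows are located. The floor of 3 counts is per library. Replicates of 1 group differed by more than sampling noise in every pair (chi-square over its degrees of freedom 38.2 to 234).

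The members, roles and lists were chosen with earlier results of these data known. Named with values are members called in any contrast, the most abundant tested member of each role, and Slc25a1, Slc25a3, Slc25a4, Slc25a5, Slc25a20, Slc25a25 and Slc25a44, 20 in all. Results for 1 member are not reported here. From other lists only counts and called members are given, apart from the sample-level marker sums.

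The alternatives tried were DESeq2 1.42.0, limma 3.58.1 (voom with quality weights), RLE scaling in edgeR, other count filters, a replicate block, a non-robust fit, only the groups compared, and leaving out each library or those with over 1% muscle markers. Replicate numbers are shared between groups. Deviations from the group mean (log2 CPM, prior count 1) of libraries with 1 number correlated at 0.165, 0.719 and 0.488 between genotypes at room temperature and at 0.142, 0.647 and 0.456 between temperatures in controls, above 0.1 in every pair, which was the rule for calling the numbers paired. They correlated at -0.0306, 0.206 and 0.491 between genotypes in the cold and at 0.0272, 0.151 and 0.577 between temperatures in mutants, which did not meet it. The reported values have no block, and blocked values are given where they change a call. No record ties a number to a litter or day.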

Additional observations from a re-analysis of the deposited data

Results flagged for a closer look

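For 4 carriers the response to cold differed between mutants and controls by the test of the interaction itself (edgeR, Benjamini-Hochberg adjusted over all genes). The interaction, the cold change in mutants minus the cold change in controls on the log2 scale, was -2.48 for Slc25a1 (adjusted p = 0.0103), where mutants changed by -1.19 and controls by 1.29. It was 3.42 for Slc25a34 (adjusted p = 0.02), with 5.32 in mutants and 1.90 in controls. It was 1.84 for Slc25a42 (adjusted p = 0.0449), with 1.69 in mutants and -0.14 in controls. It was 0.89 for Slc25a17 (adjusted p = 0.0462), with 1.69 in mutants and 0.80 in controls. For each of the 4, mutant cold and mutant room temperature libraries did not overlap. None of the 4 calls held with every single library left out. Without the 3 muscle-rich room temperature libraries the interaction was -2.42 for Slc25a1 (adjusted p = 0.0732), 3.88 for Slc25a34 (still called), 1.52 for Slc25a42 (adjusted p = 0.152) and 0.99 for Slc25a17 (adjusted p = 0.102).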

How the results depend on the processing

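The 20 named members had no result that turned round while called. Their 34 called results had 710 values under the alternatives, of which 590 kept the call and 120 lost it. Their 66 uncalled results had 1370, of which 39 gained a call. The number of members called between genotypes at room temperature, 8 as reported, was 13 with limma-voom, 5 with only the groups compared and 2 without the muscle-rich libraries. Between genotypes in the cold, 1 as reported, it was 4 with DESeq2 and 4 with limma-voom, and 0 without a filter, in the non-robust fit and with only the groups compared. For the cold in controls, 5 as reported, it was 9 with DESeq2, 15 with limma-voom and 1 without the muscle-rich libraries. For the interaction, 4 as reported, it was 8 with DESeq2, 10 with limma-voom, 2 in the non-robust fit and 2 without the muscle-rich libraries. For the cold in mutants, 16 as reported, every alternative stayed within 1.5 times. RLE scaling moved the median of all genes by at most 0.017.

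Counts over all genes moved too. Between genotypes at room temperature 952 became 1699 with DESeq2, 2844 with limma-voom, 552 with only the groups compared and 298 without the muscle-rich libraries (121 higher and 177 lower, against 598 and 354). In the cold 171 became 745, 1119 and 102 under the first 3 of these. For the cold in mutants 2663 became 5075 with limma-voom and 1633 with only the groups compared. For the cold in controls 1010 became 2008 with DESeq2, 3402 with limma-voom and 338 without the muscle-rich libraries (147 higher and 191 lower, against 658 and 352). For the interaction 73 became 443 with DESeq2, 1121 with limma-voom and 48 in the non-robust fit. Where the groups or libraries are fewer, fewer samples enter. The cause of the other shifts was not tested.

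Leaving out each library in turn gave 5 to 9 members between genotypes at room temperature, 0 to 1 in the cold, 11 to 19 for the cold in mutants, 3 to 7 in controls and 0 to 5 for the interaction. Over all genes the ranges were 395 to 1512, 28 to 203, 1466 to 3630, 313 to 1795 and 13 to 204.

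With the replicate number as a block, 8 members were called at room temperature, 0 between genotypes in the cold, 16 for the cold in mutants, 4 in controls and 2 for the interaction, and over all genes the interaction had 34. The pairing was met only in the room temperature and control comparisons. Slc25a17 lost its call in the cold (adjusted p = 0.0731) and, like Slc25a42, in the interaction (0.0766 and 0.0551), and Slc25a46 lost its call in controls (0.0637).

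Depth limits the 4 members under the filter and Slc25a2, Slc25a13 and Slc25a31, which stayed under 1 CPM in every library.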

Other observations

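Proteins of the same family under other symbols, and other carriers of the inner membrane, were counted beside the Slc25a genes. Ucp1, the uncoupling protein of brown fat, changed by -1.77 between genotypes at room temperature and by 2.86 in mutants and 1.42 in controls in the cold, all called (edgeR adjusted p = 0.0199, 0.000793 and 0.0492). Mtch2, an outer membrane relative, rose by 0.79 in the cold in mutants (adjusted p = 0.0126). Among 13 other inner membrane carriers, 4 were called higher in the cold in mutants and 4 in controls, with medians of 0.27 and 0.25. Of all genes tested, 10.0% were called higher in the cold in mutants and 4.31% in controls. Mpc2, a subunit of the pyruvate carrier, rose by 0.77 in mutants and by 1.22 in controls (adjusted p = 0.0134 and 0.00386). Letm1, which takes part in cation exchange, rose by 1.92 in mutants (adjusted p = 0.000117) and was also called higher in controls (adjusted p = 0.00152). Sfxn1, a serine carrier, was higher in mutants at both temperatures, by 1.23 at room temperature (adjusted p = 0.00578) and by 1.01 in the cold (adjusted p = 0.0494). Its level was 270, 268 and 372 CPM in mutant cold, 131, 156 and 164 CPM in control cold, 270, 401 and 400 CPM in mutant room temperature and 134, 193 and 130 CPM in control room temperature libraries. These calls were not rerun with libraries left out.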
